A study of Mus musculus with 32 samples.

Results

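The 10 genes described here encode regulators of pluripotency and of the first lineage choice of the mouse embryo. They are Pou5f1, Nanog, Zscan10, Prdm14 and Sall4, which act in the pluripotent cells, Cdx2, Tead4, Yap1 and Tfap2c, which act in the trophectoderm pathway, and the arginine methyltransferase Carm1. They were chosen by name, and all 10 were found among the 55385 genes listed in each RNA-seq library by matching gene identifiers to GENCODE M21 symbols. RNA levels were taken from 16 total RNA-seq libraries in 8 groups of 2. Open chromatin within 50 kb of each gene's start was taken from 4 lists of ATAC-seq peaks, 1 for each group.

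The embryos were wild-type, from oocytes and sperm of B6D2F1/J mice of 6 to 8 weeks, fertilized in vitro and cultured in KSOM medium. Embryos collected as zygotes, at early 2-cell or at late 2-cell had been given 10 µM A-485, which inhibits the acetyltransferase activity of CBP and p300, or the solvent DMSO from 4 hours post-insemination (hpi). The treatment window ran to 20 hpi, after which late 2-cell embryos were washed and cultured on. A second set of late 2-cell embryos had been given 50 nM trichostatin A (TSA), an inhibitor of histone deacetylases, or DMSO from 8 to 28 hpi. ATAC-seq peaks came from embryos given A-485 or DMSO and collected at late 1-cell or at early 2-cell. The 2 DMSO groups at late 2-cell belong to the A-485 and the TSA experiments and were kept apart. Labels of the zygote libraries and of the late 2-cell A-485 experiment share a style, and the other RNA-seq labels have another. Whether these are separate sets is not stated. Any such set cannot be told apart from stage or agent where a comparison spans both styles. This applies to zygote against early 2-cell and to both differences between effects. The libraries were made from whole embryos, so that fewer cells expressing a gene and less RNA per cell cannot be told apart. Nothing in the labels says that the 2 libraries of a group came from separate fertilizations, so p-values measure the spread between these libraries, which may be technical.

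In the later blastocyst, the inner cell mass gives the embryo proper and the outer trophectoderm gives the placenta. Tead4 is a DNA-binding protein and Yap1 its coactivator; the Hippo kinases keep Yap1 out of the nucleus in inner cells, and in outer cells the pair activates Cdx2, the trophectoderm homeobox factor. Tfap2c, an AP-2 factor, also acts upstream of Cdx2. Pou5f1 (Oct4), Nanog and the zinc finger protein Sall4 hold the pluripotent state, Zscan10 and Prdm14 act with them in embryonic stem cells, and Carm1 methylates histone H3 and biases early blastomeres towards the inner cell mass. Some of these RNAs are laid down in the oocyte and others are made only once the embryonic genome is activated at the 2-cell stage.

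The sequences below show the chromatin results in brief. The first 3 are peaks of early 2-cell DMSO-treated embryos that the A-485 list lacked, chosen as an example beside each of 3 genes with many such peaks. They lay 3548 bp upstream of Tead4 (chr6:128304371-128304666), 5046 bp upstream of Sall4 (chr2:168772989-168773267) and in an intron of Prdm14, 5189 bp inside its start (chr1:13121718-13121974). The fourth is a peak 37746 bp upstream of Nanog (chr6:122669444-122669743) that was in all 4 lists. These are given on the plus strand of GRCm38.p6. The last 2 are the start regions of Yap1 (chr9:8004547-8004846, minus strand) and Cdx2 (chr5:147307200-147307499, minus strand), from RefSeq on the same build, 300 bases each; both overlapped a peak with and without A-485. Capitals mark, in the lost peaks, the run GATTAAAGG that all 3 share, in the Nanog peak the letters AGGGGGC of a CTCF core, and in the start regions the letters GGAATG bound by TEAD proteins, GCCNNNGGC bound by AP-2 proteins, GGGCGG of Sp and Klf proteins, and ATTTGCAT of the POU octamer on the opposite strand.
Tead4 upstream peak, lost: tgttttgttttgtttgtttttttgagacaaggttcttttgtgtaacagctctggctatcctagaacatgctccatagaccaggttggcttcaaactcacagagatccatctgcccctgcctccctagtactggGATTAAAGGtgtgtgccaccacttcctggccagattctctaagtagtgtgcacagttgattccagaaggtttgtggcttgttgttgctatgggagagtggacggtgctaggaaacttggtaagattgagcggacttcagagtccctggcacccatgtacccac
Sall4 upstream peak, lost: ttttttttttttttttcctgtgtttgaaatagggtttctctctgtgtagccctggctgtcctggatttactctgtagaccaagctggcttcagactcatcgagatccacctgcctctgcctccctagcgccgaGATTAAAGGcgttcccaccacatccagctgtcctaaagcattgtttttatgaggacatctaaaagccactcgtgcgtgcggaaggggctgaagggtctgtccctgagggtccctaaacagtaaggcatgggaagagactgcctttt
Prdm14 intronic peak, lost: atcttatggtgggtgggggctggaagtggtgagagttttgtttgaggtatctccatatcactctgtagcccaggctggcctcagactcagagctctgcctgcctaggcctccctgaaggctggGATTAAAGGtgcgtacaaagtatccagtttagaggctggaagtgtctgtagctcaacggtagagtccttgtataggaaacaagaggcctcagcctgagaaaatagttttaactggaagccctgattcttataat
Nanog upstream peak, kept: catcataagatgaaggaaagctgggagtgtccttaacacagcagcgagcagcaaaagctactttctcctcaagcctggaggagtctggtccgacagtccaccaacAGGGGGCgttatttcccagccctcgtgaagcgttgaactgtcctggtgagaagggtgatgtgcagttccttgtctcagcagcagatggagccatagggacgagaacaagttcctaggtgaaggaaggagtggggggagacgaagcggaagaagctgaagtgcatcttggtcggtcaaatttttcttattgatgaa
Yap1 start region: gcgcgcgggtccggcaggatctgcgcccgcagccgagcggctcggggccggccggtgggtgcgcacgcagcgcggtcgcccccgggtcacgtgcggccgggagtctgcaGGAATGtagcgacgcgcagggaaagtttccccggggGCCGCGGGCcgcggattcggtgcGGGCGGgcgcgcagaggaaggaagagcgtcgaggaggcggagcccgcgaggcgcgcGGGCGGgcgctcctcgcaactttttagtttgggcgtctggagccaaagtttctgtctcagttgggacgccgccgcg
Cdx2 start region: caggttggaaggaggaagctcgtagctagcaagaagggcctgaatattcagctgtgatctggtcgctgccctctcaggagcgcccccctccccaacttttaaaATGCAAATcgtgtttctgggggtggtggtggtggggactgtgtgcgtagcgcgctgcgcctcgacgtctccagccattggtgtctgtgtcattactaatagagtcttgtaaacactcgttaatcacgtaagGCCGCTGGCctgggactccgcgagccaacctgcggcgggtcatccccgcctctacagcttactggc

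The libraries held between 13206163 and 32585987 expected counts, the lowest in the late 2-cell A-485 group. Markers followed the stage labels: 13 oocyte and zygote genes summed to 3327 to 3616 FPKM in zygotes, to 1822 to 2158 in early 2-cell embryos and to 715 to 939 in the late 2-cell DMSO groups, while 9 genes of the 2-cell embryo summed to 27 to 46 FPKM in zygotes and 538 and 587 in early 2-cell DMSO embryos. FPKM counts fragments per kilobase of effective gene length, relative to all fragments mapped in that library. The late 2-cell A-485 libraries stood apart, with 1580 and 1598 FPKM of the oocyte and zygote genes, and 5.43% and 5.35% of counts from mitochondrially encoded protein-coding genes against 2.44% and 2.35% in their DMSO group. In the TSA group that share was 3.66% and 3.72%, against 2.71% and 2.39%. Cumulus cell markers summed to at most 6.98 FPKM in any library.

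Yap1 and Pou5f1 RNA was abundant at every stage, and Sall4 RNA was abundant in zygotes. Across the 16 libraries, Yap1 ranged from 237 to 460 FPKM, Pou5f1 from 112 to 317 and Sall4 from 18.6 to 130. Carm1, between 9.04 and 23.7 FPKM, and Tfap2c, between 9.24 and 26.6 FPKM, were found in all 16 libraries. Tead4 RNA was at or near 0 in zygotes and reached 13.7 FPKM in a late 2-cell DMSO library. Zscan10 ranged from 0.27 to 5.23 FPKM. Cdx2, Prdm14 and Nanog, factors best known from later stages, were near the limit of detection, with at most 1.14, 0.97 and 0.69 FPKM. The highest Nanog count in a library was 25, that of Cdx2 46 and that of Prdm14 54.

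**Figure D1:**
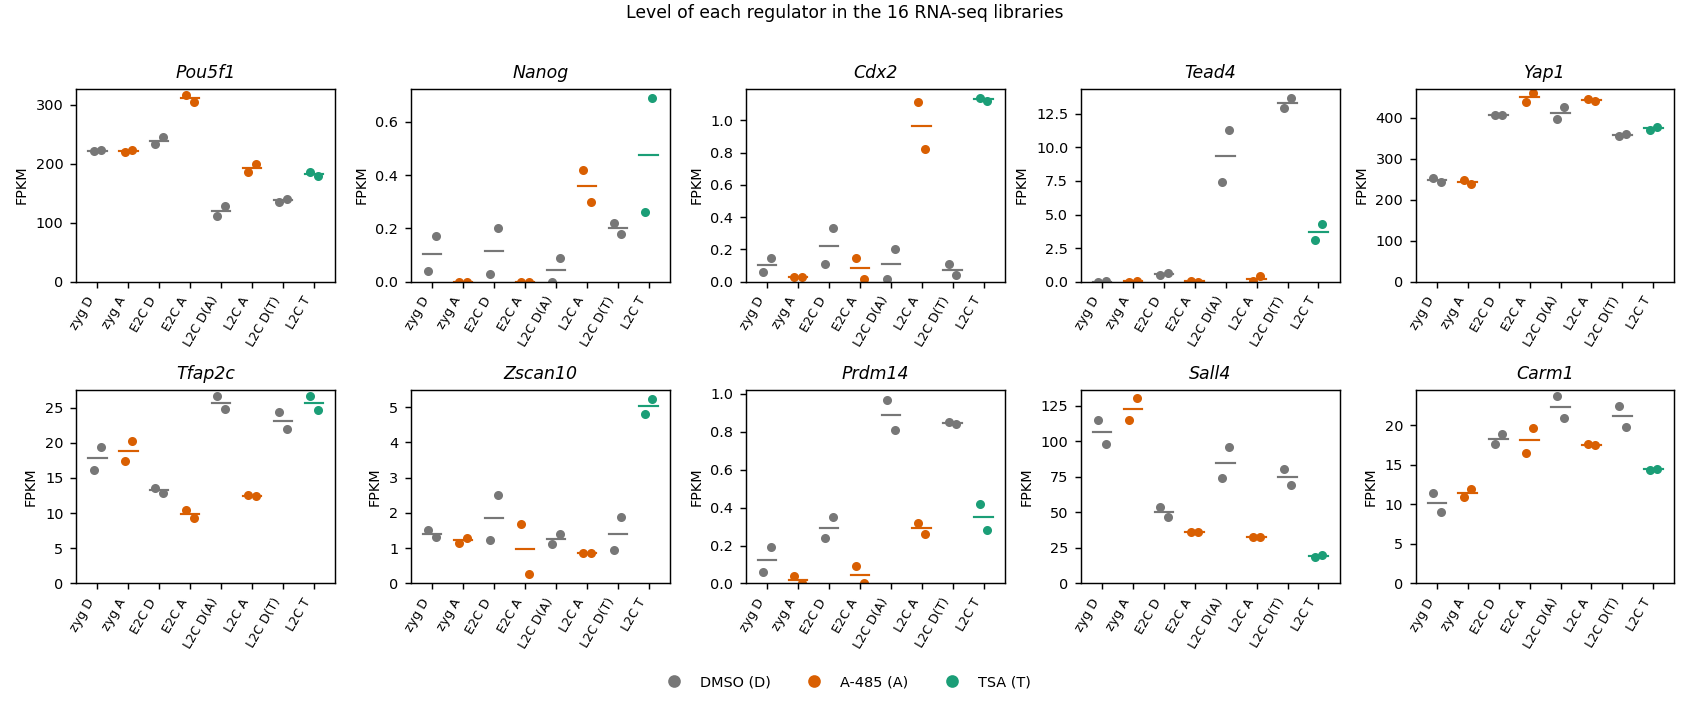
FPKM of the 10 genes in each of the 16 RNA-seq libraries (points) with the mean of the 2 libraries of each group (lines), on a linear scale that differs between genes; zyg, E2C and L2C stand for zygote, early and late 2-cell, and D(A) and D(T) for the DMSO groups of the A-485 and TSA experiments. Yap1 and Pou5f1 stay above 100 FPKM in all groups, and Tead4 spans from 0 in zygotes to 13.7 in late 2-cell DMSO-treated embryos.

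The normal course of these genes was taken from the DMSO groups. Between zygote and early 2-cell, Sall4 fell, Yap1 and Carm1 rose by less than 2-fold, and the first Tead4 RNA appeared. Sall4 went from 115 and 97.9 FPKM in zygotes to 53.9 and 47.1 at early 2-cell, and the groups did not overlap. By the quasi-likelihood test of edgeR, the log2 fold change was -1.04 ± 0.08 (SE, n = 2 per group, adjusted p = 3.21e-07). A gene was called when the adjusted p was under 0.05, the change at least 2-fold and the mean FPKM at least 1 in either group. Sall4 was the 1 of the 10 genes called, where 26.2% of the 20106 genes tested were called in either direction. On the adjusted p alone 4 of the 10 passed, where 46.1% of all genes did. The call sat at the edge of the 2-fold limit: it was lost with DESeq2 (-0.97) and without the first early 2-cell DMSO library (-0.97).

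Yap1 went from 253 and 242 FPKM to 406 in both libraries (log2 fold change 0.74, adjusted p = 3.44e-07 in edgeR). Carm1 went from 11.4 and 9.04 FPKM to 17.6 and 18.98 (0.90, adjusted p = 0.000151 in edgeR), and without the first zygote DMSO library the change was 1.06 and was called. Both groups lay apart for each gene. Tead4 had 0 and 1 counts in zygotes and 27 and 40 counts at early 2-cell, a depth-scaled ratio of 91.4 with a 95% counting interval of 15.9 to 3663 (adjusted p = 0.000565 in edgeR), and stayed below 1 FPKM. Scaling by the counts of mitochondrially encoded genes, not TMM, shifted the median of all genes by -1.32 on the log2 scale, and turned Yap1 to -0.59 and Carm1 to -0.43, while Sall4 stayed lower; it also gave calls for Tfap2c (-1.66) and Zscan10 (-1.44). Calls over all genes were 2257 higher and 3002 lower with TMM and 1270 and 8196 with mitochondrial scaling.

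The other genes did not pass the test between zygote and early 2-cell. Pou5f1 had 221 and 224 FPKM and then 234 and 245 (0.18, adjusted p = 0.109 in edgeR), and Tfap2c 16.1 and 19.4 FPKM and then 13.6 and 12.9 (-0.32, adjusted p = 0.0759 in edgeR). Zscan10 had 91 and 81 counts and then 48 and 61, from libraries of lower depth (-0.12, adjusted p = 0.834 in edgeR). Nanog (2 and 9 counts, then 1 and 8), Cdx2 (4 and 9, then 5 and 15) and Prdm14 (4 and 13, then 12 and 18) stayed at low counts, with adjusted p of 0.934, 0.509 and 0.330 in edgeR.

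Between early and late 2-cell, Tead4 rose most of the 10 genes, Tfap2c and Sall4 rose and Pou5f1 fell by less than 2-fold. Tead4 went from 0.47 and 0.63 FPKM to 12.9 and 13.7 in the late 2-cell DMSO group of the TSA experiment, with no overlap (log2 fold change 4.30 ± 0.24, 19.6-fold, adjusted p = 9.26e-08 in edgeR). It was the 1 gene of the 10 called, where 29.5% of 21141 genes were. On the adjusted p alone 6 of the 10 passed, where 45.5% of all genes did. Tfap2c went from 13.6 and 12.9 FPKM to 24.4 and 21.9 (0.82, adjusted p = 0.000251), and Sall4 from 53.9 and 47.1 FPKM to 80.4 and 69.1 (0.70, adjusted p = 9.33e-05), both in edgeR. Neither pair of groups overlapped. Pou5f1 went from 234 and 245 FPKM to 136 and 140 (-0.77, adjusted p = 2.30e-05 in edgeR). Prdm14 counts rose from 12 and 18 to 54 and 50 (adjusted p = 0.0382 in edgeR, and up to 0.255 over the alternatives), below 1 FPKM throughout. Yap1 went from 406 FPKM in both libraries to 355 and 360 (-0.14, adjusted p = 0.0410 in edgeR, and up to 0.841 over the alternatives). The changes of Carm1 (17.6 and 18.98 FPKM, then 22.5 and 19.8), Zscan10 (48 and 61 counts, then 63 and 49), Nanog (1 and 8 counts, then 11 and 8) and Cdx2 (5 and 15 counts, then 6 and 2) did not pass, with log2 fold changes of 0.11, -0.17, 0.86 and -1.50. The late 2-cell DMSO libraries of the A-485 experiment gave 7.43 and 11.3 FPKM of Tead4 and 112 and 129 FPKM of Pou5f1. This comparison and the one before share the early 2-cell DMSO libraries.

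In zygotes, no change of the 10 genes with A-485 passed the test. Of the 9 tested, 0 were called by edgeR, 0 by DESeq2 and 0 had an unadjusted p under 0.05, where 0.0712% of 18258 genes were called and 5.88% had an unadjusted p under 0.05. Pou5f1 had 221 and 224 FPKM in DMSO-treated and 219.8 and 224 FPKM in A-485-treated zygotes, and the groups overlapped (log2 fold change -0.03, 95% interval -0.19 to 0.12, adjusted p = 0.997 in edgeR). The log2 fold change was -0.06 for Yap1, 0.09 for Tfap2c, 0.03 for Zscan10 and 0.26 for Carm1, which had 11.4 and 9.04 FPKM with DMSO and 10.99 and 11.99 with A-485. Tead4, with 0 and 1 counts against 0 and 2, had too few to enter the test, and Cdx2 had 4 and 9 counts against 2 in both A-485 libraries (adjusted p = 0.997 in edgeR). Sall4 had 115 and 97.9 FPKM against 115 and 130, with a log2 fold change of 0.09 and an interval of -0.05 to 0.24. Nanog had 2 and 9 counts in DMSO-treated zygotes and 0 in both A-485 libraries (adjusted p = 0.830 in edgeR). Against an assumed floor of 3 counts over the group, it was 3.97-fold higher with DMSO. The 95% counting interval of the DMSO to A-485 ratio began at 2.72. Prdm14 had 4 and 13 counts with DMSO and 3 and 0 with A-485 (ratio 6.14, counting interval 1.78 to 32.7, adjusted p = 0.954 in edgeR). These intervals cover counting error only.

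At early 2-cell, A-485-treated embryos had less Zscan10 and Tead4 RNA, slightly less Sall4 RNA, and slightly more Pou5f1 and Yap1 RNA. Zscan10, a zinc finger factor of embryonic stem cells, had 48 and 61 counts with DMSO and 14 and 7 with A-485, and the depth-scaled groups did not overlap. It fell by 2.42 ± 0.65 on the log2 scale (SE, n = 2 per group), 5.34-fold (adjusted p = 0.0300 in edgeR). Its FPKM of 1.23 and 2.50 against 1.68 and 0.27 did overlap, because the effective length given for the gene varied between 372 and 2527 bases over the 16 libraries. Zscan10 was the 1 of 9 genes tested that was called, where 8.3% of 20872 genes were called in either direction and 7.9% were called lower. On the adjusted p alone 5 of the 9 passed, where 12% of all genes did. The call was lost without either DMSO library (-2.55 without the first, -2.27 without the second) and without the second A-485 library (-1.95).

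Tead4 counts were 27 and 40 in DMSO-treated and 4 and 0 in A-485-treated embryos (-4.02 ± 1.14 on the log2 scale, adjusted p = 0.0386 in edgeR). Its level in DMSO-treated embryos was below 1 FPKM, so it was not called. Sall4 went from 53.9 and 47.1 FPKM to 35.9 in both libraries (-0.36 ± 0.09, adjusted p = 0.0229 in edgeR). The Sall4 groups lay apart, as did those of the next 2 genes. Pou5f1 had 234 and 245 FPKM with DMSO and 317 and 305 with A-485 (0.31 ± 0.08, adjusted p = 0.0231 in edgeR). Yap1 had 406 FPKM in both DMSO libraries and 438 and 460 with A-485 (0.19 ± 0.05, adjusted p = 0.0389 in edgeR). The changes of these 3 genes were under 1.3-fold. Under some alternatives they did not pass: the highest adjusted p over the alternatives was 0.177 for Sall4, 0.284 for Pou5f1 and 0.576 for Yap1, and 0.145 for Tead4.

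For the other genes the test was not passed at this stage. Tfap2c had 13.6 and 12.9 FPKM with DMSO and 10.5 and 9.24 with A-485, with no overlap (-0.41, adjusted p = 0.111 in edgeR). Carm1 overlapped between the groups (17.6 and 18.98 against 16.6 and 19.7 FPKM). Cdx2 counts were 5 and 15 against 7 and 1. Prdm14 counts were 12 and 18 against 5 and 0 (adjusted p = 0.329 in edgeR). Nanog counts were 1 and 8 against 0 in both libraries, at least 3.20-fold higher with DMSO against the floor of 3 counts, and too few to enter the test. The median log2 fold change of the 9 tested genes was -0.41, against 0.00 over all genes tested. Over those with a mean of at least 1 FPKM in either group it was -0.12, against -0.01 over all genes under that limit. In the same libraries the 9 genes of the 2-cell embryo summed to 33.7 and 31.0 FPKM with A-485, against 587 and 538 with DMSO.

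At late 2-cell, Tead4, Sall4 and Tfap2c RNA was lower after A-485. Tead4 had 378 and 459 counts in DMSO-treated and 2 and 12 counts in A-485-treated embryos, or 7.43 and 11.3 against 0.05 and 0.39 FPKM. Both A-485 libraries lay below the 27 and 40 counts of the early 2-cell DMSO embryos. The log2 fold change was -5.52 ± 0.54 (45.8-fold, adjusted p = 6.31e-06 in edgeR). Sall4 went from 74.4 and 95.9 FPKM to 32.5 and 32.6 (-1.53 ± 0.14, 2.89-fold, adjusted p = 3.57e-06 in edgeR). Tfap2c went from 26.6 and 24.8 FPKM to 12.5 and 12.4 (-1.21 ± 0.17, 2.31-fold, adjusted p = 0.000145 in edgeR). For each of the 3 genes the groups lay apart. They were 3 of 10 genes called, all lower, where 27.3% of 22822 genes were called, 16.8% lower and 10.5% higher. On the adjusted p alone 4 of the 10 passed, where 37.4% of all genes did. The 3 calls held under each of the scalings tried.

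Pou5f1 had 112 and 129 FPKM with DMSO and 185 and 199.8 with A-485, and these groups did not overlap. Its log2 fold change was 0.55 ± 0.14 (1.46-fold, adjusted p = 0.00944 in edgeR, and up to 0.0502 over the alternatives). With scaling to the mitochondrially encoded genes, whose share was higher in the A-485 libraries, it was -0.44, and the median of all genes shifted by -0.97; with total counts the median shifted by 0.19. Calls over all genes were 2406 higher and 3824 lower with TMM, 1177 and 6874 with mitochondrial scaling, and 2939 and 3435 with total counts. Cdx2 had 1 and 8 counts with DMSO and 30 and 25 counts with A-485 (2.93 ± 1.13 on the log2 scale, adjusted p = 0.0620 in edgeR). Nanog had 0 and 3 counts with DMSO and 11 and 9 with A-485 (ratio 10.0, counting interval 2.97 to 52.7, adjusted p = 0.241 in edgeR). The depth-scaled groups of Cdx2 and of Nanog did not overlap.

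Yap1 had 396 and 426 FPKM with DMSO and 445 and 440 with A-485 (-0.11 with TMM, 0.08 with total counts and -1.09 with mitochondrial scaling, adjusted p = 0.267 in edgeR with TMM). Carm1 had 23.7 and 20.99 FPKM with DMSO and 17.6 and 17.5 with A-485 (-0.33, adjusted p = 0.136 in edgeR). Prdm14 had 53 and 37 counts against 10 and 9 (-1.82, adjusted p = 0.0929), and Zscan10 58 and 50 counts against 27 and 22 (-0.73, adjusted p = 0.392), all in edgeR. The Carm1, Prdm14 and Zscan10 groups lay apart although none passed the test. Mitochondrial scaling made calls of 3 of these genes, Yap1, Carm1 (-1.31) and Zscan10 (-1.71), all lower. The median over the 10 genes was -0.53, against 0.28 over all genes tested. Over those with a mean of at least 1 FPKM in either group it was -0.73, against 0.02 over all genes under that limit.

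The A-485 effect was compared between the 2 stages in one fit of 8 libraries with an interaction term. The late effect minus the early effect was -1.08 ± 0.17 for Sall4 on the log2 scale (adjusted p = 4.18e-05 in edgeR), and -0.71 ± 0.24 for Tfap2c (adjusted p = 0.0337 in edgeR). These were 2 of 10 genes, where 20% of 25141 genes passed; for differences the adjusted p alone was used. The Tfap2c difference lost its call without the second early DMSO library (-0.66), the first early A-485 library (-0.64) or the first late A-485 library (-0.68). For Tead4 the difference of -1.40 had an adjusted p of 0.495 in edgeR, and without the first early A-485 library it was 2.49. The Yap1 difference of -0.22 did not pass (adjusted p = 0.145 in edgeR) but passed in 7 of 15 alternatives, among them DESeq2 (-0.31), one fit of all 16 libraries (-0.33) and mitochondrial scaling (-1.27). That of Carm1 (-0.38, adjusted p = 0.248 in edgeR) passed with mitochondrial scaling (-1.44) and without the second late DMSO library (-0.72). That of Nanog (adjusted p = 0.0981 in edgeR), with 0 counts in both early A-485 libraries, passed in one fit of all 16 libraries. Pou5f1 (0.32), Cdx2 (4.33), Zscan10 (1.76) and Prdm14 (0.81) did not pass.

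**Figure D2:**
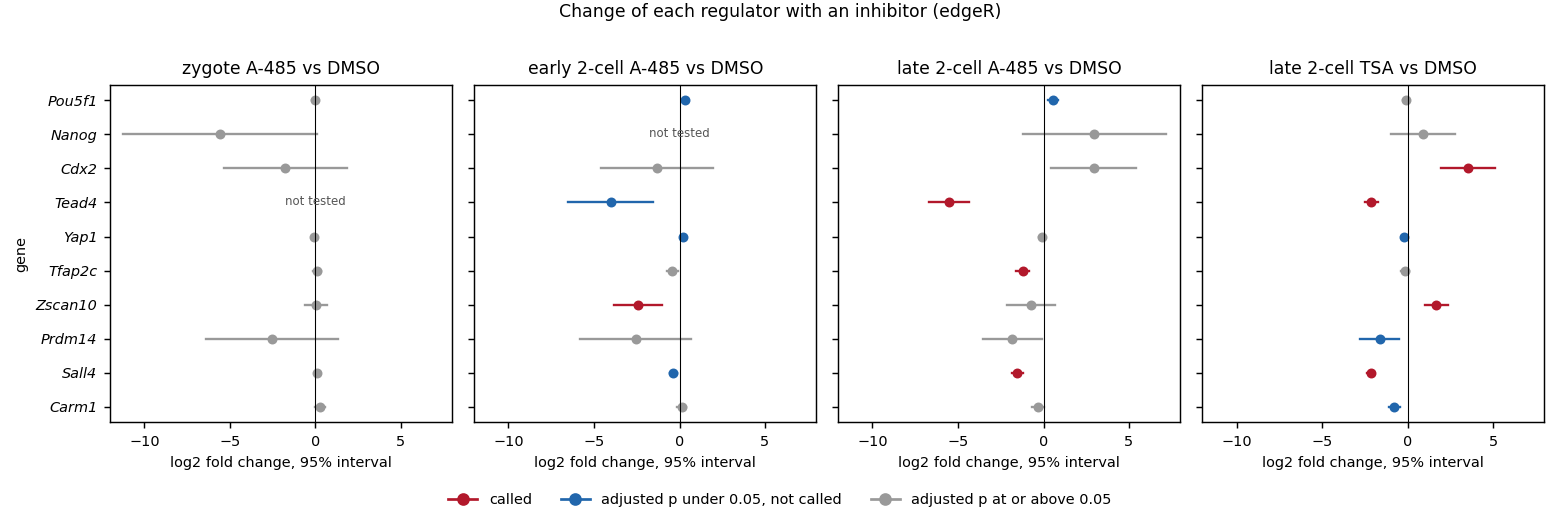
Log2 fold changes of the 10 genes with 95% intervals from edgeR in the 4 treatment comparisons, each against its own DMSO group. Tead4 (-5.52 and -2.13) and Sall4 (-1.53 and -2.16) lie below 0 at late 2-cell after A-485 and after TSA, while Tfap2c is at -1.21 after A-485 and -0.17 after TSA.

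TSA acts on the opposite side of the acetylation balance, since it blocks the removal of acetyl groups. After TSA, late 2-cell embryos had less Sall4 and Tead4 RNA and more Zscan10 and Cdx2 RNA. Sall4 went from 80.4 and 69.1 FPKM to 18.6 and 19.9 (log2 fold change -2.16 ± 0.10, 4.47-fold, adjusted p = 3.70e-08 in edgeR). Tead4 went from 12.9 and 13.7 FPKM to 3.12 and 4.26 (-2.13 ± 0.18, 4.36-fold, adjusted p = 3.12e-06 in edgeR). Neither gene's groups overlapped. Zscan10 went from 0.94 and 1.88 FPKM to 4.81 and 5.23, or from 63 and 49 counts to 171 and 174 (1.69 ± 0.29, 3.23-fold, adjusted p = 0.000754 in edgeR). Cdx2 went from 6 and 2 counts to 45 and 46, or from 0.11 and 0.04 to 1.14 and 1.12 FPKM (3.54 ± 0.70, 11.6-fold, adjusted p = 0.00192 in edgeR). Both genes' groups lay apart. The TSA libraries were the only group with a mean Cdx2 level above 1 FPKM. These were 4 of 10 genes called, where 27.7% of 23429 genes were, 13.8% higher and 13.9% lower.

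Another 3 changes passed the test without reaching both limits of a call, so that 7 of the 10 genes passed on the adjusted p alone, where 43.1% of all genes did. Carm1 went from 22.5 and 19.8 FPKM to 14.4 and 14.6 (-0.77 ± 0.14, 1.71-fold, adjusted p = 0.00117 in edgeR). Prdm14 went from 54 and 50 counts to 19 and 13 (-1.62 ± 0.51, adjusted p = 0.0254 in edgeR), below 1 FPKM in each library. Over the alternatives the adjusted p reached 0.285 for Prdm14 and 0.270 for Yap1. Yap1 had 355 and 360 FPKM with DMSO and 370 and 377 with TSA, yet its log2 fold change was -0.22 with TMM (adjusted p = 0.00214 in edgeR). With total counts it was 0.13. The cause of this turn was not tested. Pou5f1 (136 and 140 against 186 and 179 FPKM, -0.07 with TMM and 0.28 with total counts) and Tfap2c (24.4 and 21.9 against 26.6 and 24.7 FPKM, -0.17 and 0.19) turned in the same way. Scaling to total counts shifted the median of all genes by 0.35 and changed the calls from 3237 higher and 3247 lower to 4108 and 2384. Nanog had 11 and 8 counts with DMSO and 9 and 25 with TSA (0.90, adjusted p = 0.436 in edgeR).

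Beside the changes of Cdx2, the level of other lineages' markers moved in the same libraries. A list of 5 trophoblast or blastocyst markers summed to 58.1 and 56.9 FPKM with TSA and 32.0 and 38.4 with A-485, against 5.24 to 8.32 in the late 2-cell DMSO groups. A list of 8 fibroblast markers summed to 15.8 and 14.9 FPKM with TSA and 5.92 and 10.1 with A-485, against 0.48 to 2.83 with DMSO. Postn was its highest gene in both groups, 2 of the 8 were at 0 in both TSA libraries and 3 in both A-485 libraries. A list of 6 erythroid markers reached 9.31 FPKM in a TSA library, most of it Hba-a1, with 3 of the 6 at 0 in both libraries. The part of these markers in the changes of the 10 genes was not tested.

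A-485 and TSA were given over different windows, and each effect was taken against its own DMSO group. In one fit of the 8 late 2-cell libraries, the effects differed for 5 of the 10 genes, where 17.3% of 26554 genes passed. The A-485 effect minus the TSA effect was -3.50 ± 0.52 for Tead4 (adjusted p = 9.37e-05), -1.15 ± 0.20 for Tfap2c (adjusted p = 0.000374) and -2.53 ± 0.63 for Zscan10 (adjusted p = 0.00801), all by edgeR. So Tead4 fell after both agents, and by more after A-485. For Pou5f1 (0.51 ± 0.17, adjusted p = 0.0427) and Sall4 (0.52 ± 0.17, adjusted p = 0.0440) the edgeR difference was small, and leaving out any of 6 of the 8 libraries lost each call: it held only without the second DMSO library of the A-485 experiment or the first A-485 library. The difference for Cdx2 did not pass the test (-0.71, adjusted p = 0.833 in edgeR), and for Yap1 the difference was 0.00 (adjusted p = 1.00 in edgeR). Those for Carm1 (0.33), Nanog (2.00) and Prdm14 (-0.31) did not pass either.

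The genes that work with these regulators were taken from lists, with counts for those called. Of 35 genes of the pluripotency network, 10 were lower and 0 higher at early 2-cell with A-485, 13 lower and 8 higher at late 2-cell with A-485, and 7 lower and 10 higher with TSA. The median log2 change of those with a mean of at least 1 FPKM in either group was -0.76, -0.23 and 0.01. Over all genes under the same limit it was -0.01, 0.02 and -0.03. Over all genes tested, 7.9% were called lower at early 2-cell, 16.8% lower and 10.5% higher at late 2-cell with A-485, and 13.9% lower and 13.8% higher with TSA. With mitochondrial scaling the late 2-cell counts with A-485 were 17 lower and 3 higher, with a median of -1.22. Dppa4, a gene of early embryos and stem cells, fell from 36.1 and 31.4 FPKM to 0.84 and 1.75 at early 2-cell (-4.12, adjusted p = 1.01e-06), and with A-485 at late 2-cell from 199.7 and 178 FPKM to 12.1 and 21.6 (-3.36, adjusted p = 5.99e-08), both in edgeR. Its partner Dppa2 fell from 102 and 88.7 FPKM to 16.6 and 11.6 after A-485 (-2.99) and from 85.4 and 94.6 FPKM to 10.8 and 8.70 after TSA (-3.59). Sox2, the partner of Pou5f1, fell from 8.20 and 7.60 FPKM to 2.33 and 1.82 at early 2-cell with A-485 (-1.91, adjusted p = 0.000226 in edgeR). The nuclear receptor Esrrb fell from 9.01 and 8.17 FPKM to 0.63 and 0.98 at late 2-cell with A-485 (-3.61, adjusted p = 1.38e-06 in edgeR).

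More trophectoderm genes were higher than lower at late 2-cell after either agent. Of 20 listed, 9 were higher and 1 lower with A-485, and 12 higher and 1 lower with TSA. The medians were 1.25 and 2.22, over 19 genes each. Shares and medians over all genes are those just given. Each median takes genes with a mean of at least 1 FPKM in either group. A gene near 0 with DMSO therefore enters only if its treated group is higher. At early 2-cell 5 were lower and 0 higher with A-485. With scaling to the mitochondrially encoded genes the late 2-cell counts with A-485 were 5 higher and 4 lower, and the median was 0.25; with TSA they were again 12 and 1. Gata2, a trophoblast factor, was at 3.05 and 3.35 FPKM with DMSO and at 109.7 and 110.7 FPKM with TSA (4.73 ± 0.10, adjusted p = 1.11e-09 in edgeR). Gata3, which acts beside Tead4 and Cdx2, was at 1.22 and 0.48 FPKM with DMSO and 9.06 and 15.4 with A-485 (3.47, adjusted p = 5.01e-05 in edgeR). The keratin gene Krt18 was higher after A-485 (2.05) and after TSA (3.47). In the normal course from early to late 2-cell, 9 of the 20 genes were lower and 1 higher, where 29.5% of all genes were called in either direction. Of 13 primitive endoderm genes, 6 were higher and 1 lower with either agent. Of all genes tested, 10.5% were higher and 16.8% lower with A-485, and 13.8% and 13.9% with TSA. The medians were 2.36 with A-485 and 2.42 with TSA, over 10 and 11 genes with at least 1 FPKM in either group. With mitochondrial scaling 5 were higher and 1 lower with A-485, with a median of 1.39, and 6 and 1 with TSA. Pdgfra, a receptor of that lineage, was at 0.08 and 0.54 FPKM with DMSO and 13.9 and 15.9 with A-485 (6.27, adjusted p = 2.56e-08 in edgeR). The 1 that was lower in both was Gata4 (-2.10 with A-485 and -2.53 with TSA).

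Of 27 Hippo pathway genes and Tead partners, 2 were higher and 5 lower at late 2-cell with A-485, and 8 higher and 3 lower with TSA; mitochondrial scaling gave 1 and 10 with A-485 and 6 and 4 with TSA. The 7 of 27 called with A-485 are a share near the 27.3% of all genes. With TSA 27.7% of all genes were called. The medians were 0.23 with A-485 and 0.04 with TSA. Wwtr1, the paralogue of Yap1 known as Taz, fell from 5.01 and 6.97 FPKM to 1.49 and 0.73 with A-485 (-2.62, adjusted p = 9.70e-05 in edgeR). Amotl2, which holds Yap1 at cell junctions, was higher with A-485 (4.19) and with TSA (4.86). Its FPKM went from 1.57 and 0.75 to 7.28 and 3.57 with A-485, a smaller rise than the count-based 4.19. With TSA its FPKM went from 0.27 and 0.6 to 12.7 and 20.2. Of 17 genes related to Carm1 and Prdm14, 7 were lower and 2 higher with A-485, and 6 lower and 1 higher with TSA. Their medians were -0.67 and -0.82. Over all genes tested, 16.8% were lower and 10.5% higher with A-485, and 13.9% and 13.8% with TSA. Mitochondrial scaling gave 10 lower and 1 higher with A-485, and 7 and 1 with TSA. The arginine methyltransferase genes Prmt1, Prmt5 and Prmt6 were among those that fell in both. Prmt6 fell from 71.6 and 72.0 FPKM to 3.39 and 6.19 with A-485 (-3.87) and from 63.3 and 60.1 FPKM to 17.0 and 15.5 with TSA (-2.29). In zygotes, 0 of the 97 tested genes of these lists were called with A-485 by edgeR and 0 by DESeq2, and 6 had an unadjusted p under 0.05.

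**Figure D3:**
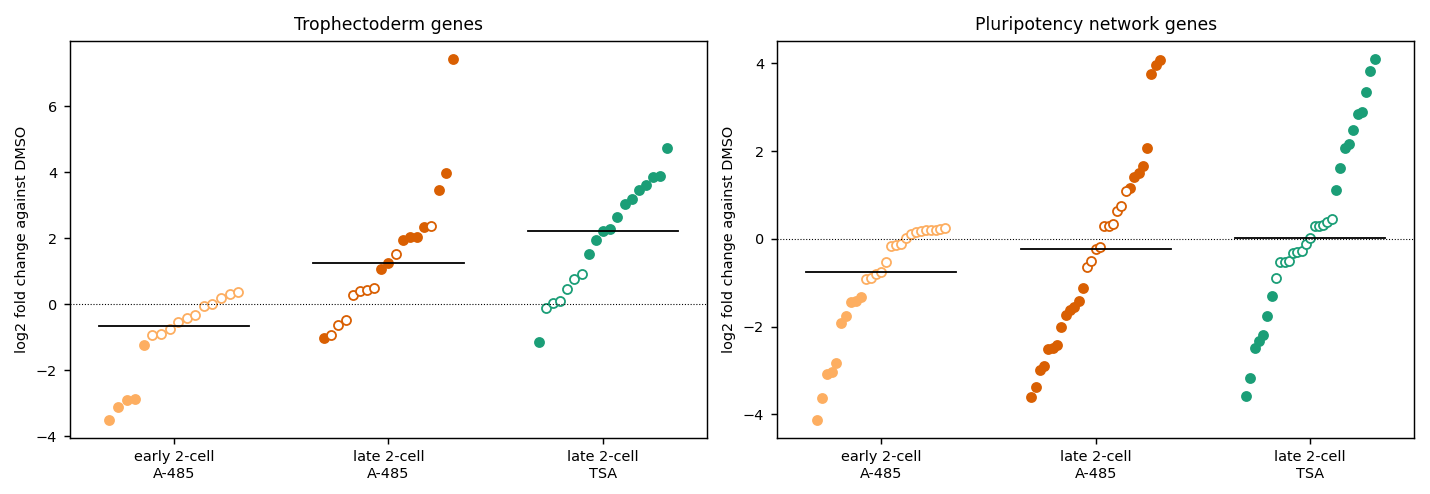
Log2 fold changes of the trophectoderm genes (left) and the pluripotency network genes (right), ordered by value, against DMSO in 3 comparisons. Genes shown had a mean of at least 1 FPKM in either group. Filled points are called genes, open points are not, and lines are medians. Trophectoderm medians lie at 1.25 with A-485 and 2.22 with TSA at late 2-cell, while pluripotency genes spread to both sides of 0.

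Next, open chromatin around the 10 genes was examined. The study's peak lists hold regions found in both replicates, 1 list for each group, so that differences between lists have no replicate test. A peak was counted as lost when no peak of the A-485 list overlapped it by 1 bp or more. In early 2-cell DMSO-treated embryos 62 of the 27693 peaks lay within 50 kb of the starts of the 10 genes, and 49 of them (79.0%, 95% Wilson interval 67.4 to 87.3) were lost with A-485. Over all peaks of that list 78.3% were lost, which lies inside that interval. At late 1-cell, 6 of 15 peaks were lost (40.0%, interval 19.8 to 64.3), against 51.2% of all 10214. With lists cut to equal length by fold enrichment, 1 of 9 late 1-cell peaks was lost (11.1%, interval 1.99 to 43.5). The paper, which compared signal, reports that accessibility at this stage was largely unaffected by the inhibitor. The A-485 lists were shorter throughout, with 13712 peaks at early 2-cell and 7094 at late 1-cell. A lost peak is therefore one not listed with A-485, which need not mean that the region closed. Each interval covers counting error only.

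The peaks that were lost were mostly those far from gene starts and those first seen at early 2-cell. Of 42 distal peaks, over 2.5 kb from the start of any transcript, 37 were lost (88.1%, against 94.5% of all distal peaks). Of 14 promoter peaks, within 1 kb of a start, 6 were lost (42.9%, against 38.6%). The 8 peaks already open in late 1-cell DMSO-treated embryos were kept, 0 lost, which the Wilson interval puts at up to 32.4% (13.2% over all peaks). Of the 54 newly opened peaks 49 were lost (90.7%, against 91.1%). The median number of early 2-cell DMSO peaks within 50 kb was 7 for these genes and 4 for 10364 expressed coding genes, and the median fold enrichment of the peaks over the local background was 6.66, against 8.12 over the whole list.

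**Figure D4:**
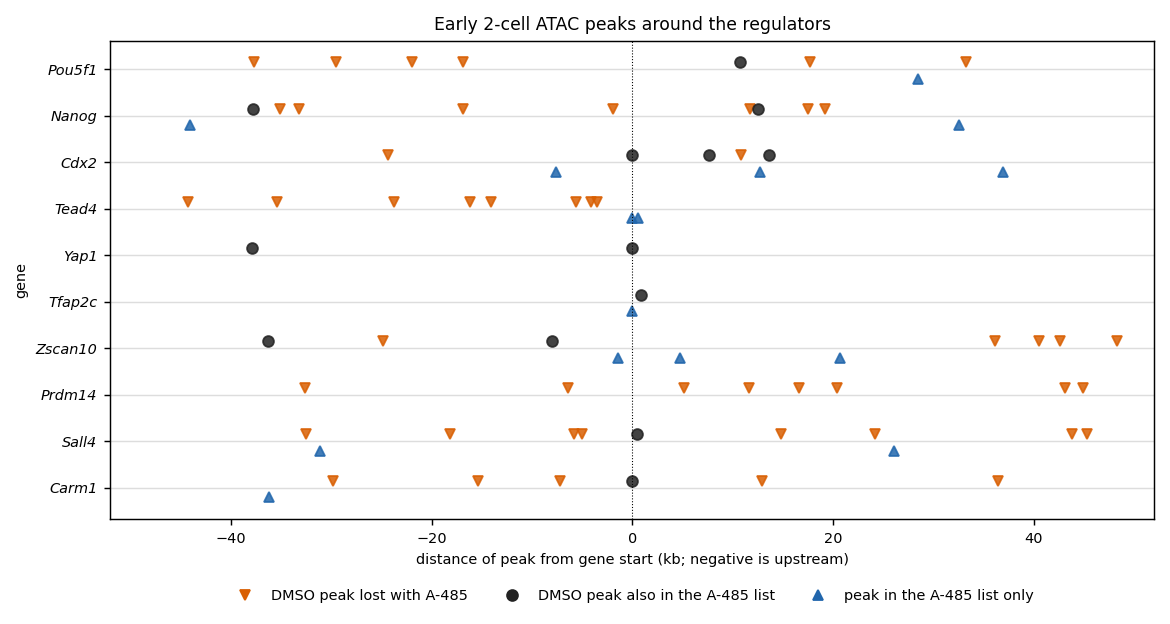
Positions of ATAC-seq peaks within 50 kb of the start of each of the 10 genes, as distance from the start in the direction of transcription, at early 2-cell; triangles pointing down are DMSO peaks lost with A-485, circles DMSO peaks also in the A-485 list, and triangles pointing up peaks of the A-485 list alone. Tead4 and Prdm14 keep 0 of 8 early 2-cell DMSO peaks with A-485, while Yap1 and Tfap2c keep all 2 and 1.

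By gene, the losses ranged from none to all. Tead4 and Prdm14 each lost all 8 of their early 2-cell peaks, Sall4 8 of 9, Nanog 7 of 9, Pou5f1 6 of 7, Carm1 5 of 6, Zscan10 5 of 7 and Cdx2 2 of 5. Yap1 with 2 peaks and Tfap2c with 1 peak lost 0. Of the peaks near a gene, several lay at the starts of its neighbours, such as the 2 of Tulp3 near Tead4 and that of Cfap300 near Yap1. The strongest peak of all 62 lay 43842 bp downstream of the Sall4 start, past the end of the gene, with a fold enrichment of 15.98, and was lost. The next were the Prdm14 intronic peak printed above (11.9, lost), a peak 7997 bp upstream of Zscan10 (11.1, kept) and a peak 32524 bp upstream of Sall4 (10.8, lost).

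At early 2-cell, DMSO peaks at the gene starts were also in the A-485 list. Peaks within 1 kb of the own start were found for Cdx2, Yap1, Tfap2c, Sall4 and Carm1 in early 2-cell DMSO embryos, and all 5 were in the A-485 list too. Those of Sall4 and Carm1 were already open at late 1-cell under both conditions. For Tead4 the start carried no peak with DMSO, but the A-485 list had 2 there, with fold enrichments of 5.34 and 2.40, and its 3 late 1-cell DMSO peaks, all intronic and one of them 199 bp from the start of another Tead4 transcript, were absent at late 1-cell with A-485. Tfap2c likewise had a second start peak in the A-485 list alone (5.27). Prdm14 had a start peak in the late 1-cell DMSO list alone, so that one was not kept with A-485. Pou5f1, Nanog and Zscan10 had no peak within 1 kb of the 5′ end of the gene in any of the 4 lists, though a peak of the early 2-cell A-485 list alone lay 87 bp from the start of a Zscan10 transcript inside the gene. Side by side with the RNA, Tead4 lost all peaks and had 4 and 0 counts at early 2-cell, Sall4 kept its start peak and lost the other 8 with 1.28-fold less RNA, and Yap1 kept both peaks with 1.14-fold more RNA. Pou5f1 lost 6 of 7 peaks with 1.24-fold more RNA, Carm1 lost 5 of 6 with a log2 fold change of 0.13 that did not pass the test, Zscan10 lost 5 of 7 with 5.34-fold less RNA, and Tfap2c kept its 1 peak with a log2 fold change of -0.41 that did not pass. Prdm14 lost all 8 peaks with 12 and 18 counts against 5 and 0. Cdx2 lost 2 of 5 with 5 and 15 counts against 7 and 1. Neither RNA change passed. Nanog lost 7 of 9 with 1 and 8 counts against 0 in both libraries, too few to test. In DMSO-treated zygotes the mean FPKM was 247 for Yap1, 222 for Pou5f1, 106 for Sall4, 17.8 for Tfap2c and 10.2 for Carm1. It was lower for the other genes. The part of this earlier RNA was not tested.

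The lost and the kept peaks differed in their base composition and in how many were promoter peaks, which were 8 of the 13 kept and 6 of the 49 lost. In windows of 300 bp at peak centres, the median GC content was 49.0% in the 49 lost peaks near the 10 genes and 60.3% in the 13 kept, and the median repeat-masked share was 55.0% and 0%. The same medians over all peaks were 48.0% and 63.3% for GC and 52.7% and 0% for repeats. The GC box letters GGGCGG, on either strand, were in 1 of 49 lost (2.04%) and 8 of 13 kept windows (61.5%), against 8.48% and 64.7% over all peaks and 35.7% of 32851 RefSeq promoters. The CTCF core AGGGGGC, added to the search after the sequences were read, was in 1 lost and 4 kept windows (2.89% of lost and 15.5% of kept over all peaks), and is held by 10.6% of promoters. The TEAD letters GGAATG were in 6 lost and 2 kept windows (12.2% and 15.4%, against 11.9% and 9.78% over all peaks and 14.7% of promoters), and the octamer ATTTGCAT in 1 lost and 0 kept (1.01% and 1.12% over all peaks, 1.74% of promoters). The AP-2 letters GCCNNNGGC were in 3 lost and 3 kept (6.13% and 27.9% over all peaks, 16.6% of promoters), and the nuclear receptor letters AGGTCA in 9 lost (18.4%) and 0 kept, against 18.5% and 10.8% over all peaks and 16.3% of promoters. A match of letters is a description and not a binding site.

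The run GATTAAAGG was chosen because the 3 lost peaks printed above share it. Those 3 are left out of the counts of lost peaks near the 10 genes, over the whole list and by gene. They are not left out of the distal shares and the match positions. The run was in the windows of 35 of the other 46 lost peaks near the 10 genes (76.1%, Wilson interval 62.1 to 86.1) and of 1 of the 13 kept peaks (7.69%, interval 1.37 to 33.3). Over the whole list it was in 13986 of 21686 lost peaks (64.5%) and 341 of 6004 kept peaks (5.68%). It was in 3.26% of late 1-cell DMSO peaks, 2.76% of early 2-cell A-485 peaks and 0.542% of promoters. Among distal peaks alone, which hold more repeats, the shares over all peaks were 66.6% of lost and 24.5% of kept. Of the matches in early 2-cell DMSO windows, 98.6% lay wholly in repeat-masked sequence, at a median of 57.5 bp from the centre, where an even spread would give 72.8 bp. The letters also occur in the consensus of the mouse B1 family of short interspersed repeats, but the repeat family of each match was not looked up. By gene, the run was in 7 of 7 such lost peaks of Sall4, 5 of 7 of Tead4, 5 of 7 of Prdm14, 6 of 7 of Nanog, 4 of 6 of Pou5f1, 4 of 5 of Carm1, 3 of 5 of Zscan10 and 1 of 2 of Cdx2.

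**Figure D5:**
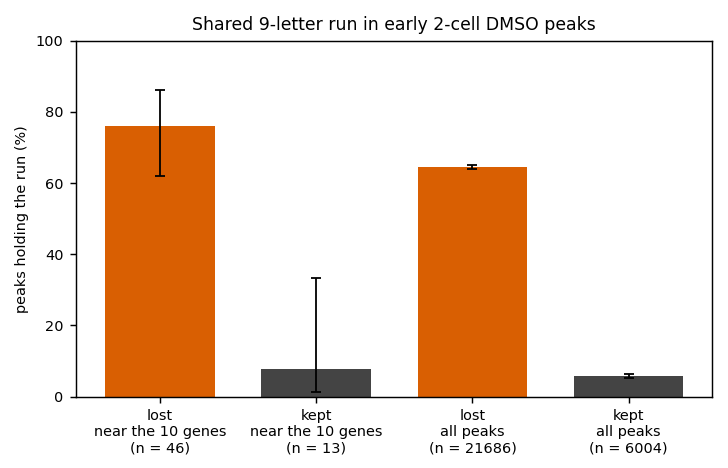
Share of ATAC-seq peaks whose 300 bp centre window holds the 9-letter run, for lost and kept early 2-cell DMSO peaks near the 10 genes and in the whole list, with 95% Wilson intervals. The 3 peaks that the run was taken from are left out. Lost peaks hold it in 76.1% near the 10 genes and 64.5% in the whole list, kept peaks in 7.69% and 5.68%.

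RefSeq start regions were at hand for Cdx2, Nanog, Yap1, Zscan10 and Pou5f1; those of Tead4, Tfap2c, Prdm14, Sall4 and Carm1 were not used here. None of the 5 genes' start regions held GATTAAAGG. The Yap1 start region, 74.0% GC, held GGAATG once and GGGCGG at 2 places, and that of Cdx2, 57.3% GC, held the octamer and a match to GCCNNNGGC.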

How the data were processed

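The 10 genes and all gene lists were chosen with earlier results of these data known. The libraries are 16 total RNA-seq libraries (8 groups of 2) and 4 ATAC-seq groups of 2 replicates, grouped by their labels. For RNA-seq the authors trimmed reads with Trimmomatic 0.39, mapped them to GRCm38 with STAR 2.7.8a and ran RSEM 1.3.1. The deposited values are the expected count of each gene, which is not normalized, its FPKM, scaled by the authors' RSEM run for effective length and library, and RSEM's standard deviation of the count. The annotation and the strand setting of RSEM are not given in the sources used here, and the kit is stranded. For ATAC-seq the authors ran the ENCODE pipeline and deposited 1 list of reproducible peaks per group, with a reproducibility score, the fold enrichment at the summit and the -log10 q of each peak. The score was not used.

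Rounded expected counts entered edgeR 4.0.16 (R 4.3.3, quasi-likelihood F test, TMM). Genes needed a summed count of 10 or more in the libraries of a comparison, and p-values were adjusted over all such genes by Benjamini and Hochberg's method. The standard error was taken from the F statistic. Calls required an adjusted p below 0.05, a 2-fold change and 1 FPKM or more as the mean of one of the groups; differences between effects required the adjusted p alone. All 10 genes are named in every comparison, and up to 4 called genes per list with the largest change among those with at least 5 FPKM. DESeq2 1.42.0, other scalings, filters, fits and peak settings, the replicate number as a block, and leaving out each library were the alternatives.

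Peak overlaps were found with bedtools 2.31.1 in Python 3.11.15. Distances run to the 5′ end of each gene in GENCODE M21. Peak sequences came from GRCm38.p6 and start regions from RefSeq, which gave entries for 5 of the 10 genes. Shares have 95% Wilson intervals, which cover counting error only. On simulated counts of the early 2-cell comparison (20872 genes), 148 of 200 genes changed 4-fold were recovered (74%), and 14 of 162 calls were false (8.64%). The changed genes were drawn from those above a minimum mean count, and no FPKM limit was applied. The recovered share therefore does not describe genes with few counts, such as Nanog, Cdx2 and Prdm14. Pooled over genes, counts of the 2 libraries of a group differed by more than counting error: chi-square divided by its degrees of freedom was 9.44 to 19.6. For well-counted genes the number of libraries therefore limits precision more than depth. For genes with few counts, such as Nanog, Cdx2 and Prdm14, counting error is large as well. The highest count of a gene overlapping any of the 10 on the other strand was 99, for Yipf2 at Carm1, and the Nanog pseudogenes Nanog-ps1 and Nanog-ps2 had 0 counts. One gene is not reported here.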

Additional observations from a re-analysis of the deposited data

Results flagged for a closer look

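These results stand out because the same treatment, or the opposing treatments, gave effects that differed by a test of the difference in edgeR. Each is given as a value with no explanation. The A-485 effect at late 2-cell minus that at early 2-cell was -1.08 on the log2 scale for Sall4 and -0.71 for Tfap2c. At late 2-cell the A-485 effect minus the TSA effect was -3.50 for Tead4, -1.15 for Tfap2c, -2.53 for Zscan10, 0.51 for Pou5f1 and 0.52 for Sall4. With scaling to the mitochondrially encoded genes, the last 2 turned to -0.18 each.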

How the results depend on the processing

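Of 944 alternative values for 78 changes of single genes, 866 kept their direction and their side of the threshold, 38 reversed, 24 lost a call and 16 gained one. The number of the 10 genes called was 1 in early 2-cell embryos with A-485, and became 0 to 1 when single libraries were left out, 2 with no FPKM limit and 4 with no fold limit. At late 2-cell with A-485 it was 3, and 6 with mitochondrial scaling. From zygote to early 2-cell it was 1, and 0 with DESeq2, 0 with its size factors, 4 with mitochondrial scaling, 2 with no FPKM limit, 3 with no fold limit and 0 to 2 with single libraries left out. From early to late 2-cell it was 1, and 2 and 5 with no FPKM and no fold limit. For the late minus early difference it was 2, and 1 with total counts, 5 with mitochondrial scaling, 4 with all 16 libraries in one fit and 1 to 4 with single libraries left out. For A-485 minus TSA it was 5, and 3 with total counts and 3 to 5 with single libraries left out. The lost share of late 1-cell peaks, 40.0%, became 11.1% (1 of 9) with lists cut to equal length by fold enrichment. The early 2-cell share lay between 75% and 83.0% under the alternatives. At equal length it rested on 8 of 10 peaks (80%, Wilson interval 49.0 to 94.3).

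Mitochondrial scaling reversed these log2 changes: in zygotes Pou5f1 (0.23) and Yap1 (0.21), at late 2-cell with A-485 Pou5f1 (-0.44), from zygote to early 2-cell Pou5f1 (-1.16), Nanog (-1.08), Cdx2 (-0.18), Yap1 (-0.59), Prdm14 (-0.0069) and Carm1 (-0.43), and from early to late 2-cell Carm1 (-0.029). It also reversed the late minus early difference of Pou5f1 (-0.74) and Prdm14 (-0.14), and the A-485 minus TSA difference of Pou5f1 (-0.18), Yap1 (-0.69), Sall4 (-0.18) and Carm1 (-0.36). Total counts reversed Yap1 with A-485 at late 2-cell (0.077), Pou5f1 (0.28), Yap1 (0.13) and Tfap2c (0.19) with TSA, and Yap1 between the agents (-0.055). One fit of all 16 libraries gave 0.056 for Pou5f1 with TSA. With the DMSO libraries of the A-485 experiment, the change from early to late 2-cell was -1.39 for Nanog and 0.029 for Zscan10. The cause of these reversals was not tested.

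Leaving out single libraries reversed some small or low-count changes. In zygotes with A-485 the range was -0.096 to 0.027 for Pou5f1, -0.054 to 0.24 for Tfap2c and -0.014 to 0.074 for Zscan10. From zygote to early 2-cell it was -1.80 to 1.64 for Nanog and -0.26 to 0.023 for Zscan10, and from early to late 2-cell -0.024 to 0.23 for Carm1. For late minus early it was -0.018 to 0.36 for Pou5f1, -3.12 to 2.49 for Tead4 and -0.22 to 5.03 for Prdm14. For A-485 minus TSA it was -1.59 to 1.46 for Cdx2, -0.0093 to 0.062 for Yap1 and -0.53 to 0.024 for Prdm14.

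With the replicate number as a block, the genes called were 0 in zygotes, 1 at early 2-cell with A-485, 3 and 4 at late 2-cell with A-485 and TSA, 1 in each DMSO comparison, and 2 and 5 for the differences, as without it. Same-numbered libraries share only a number: their deviations from the group means correlated at -0.04 to 0.11 over genes. Nanog, Cdx2 and Prdm14 had at most 54 counts in a library, and the standard errors of their log2 changes were between 0.51 and 2.61 in the treatment comparisons.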

Other observations

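The genes whose course over the 8 groups was most like that of each regulator were found among 12165 genes with a mean of at least 5 FPKM in some group, by Pearson's r over the 8 group means of log2(FPKM + 0.1). The points share libraries and depth, and the values are a description. For Tead4 they were the class I histocompatibility gene H2-Q6 (r = 0.998), Arfgap2 (0.996) and Dync1li1 (0.996). For Sall4 they were H3f3a, which encodes the histone variant H3.3 (0.994), Kif20b (0.991) and Rhno1 (0.987). For Zscan10 they were Nectin2 (0.994), Trnp1 (0.968) and Il4ra (0.957), and for Tfap2c Rab11fip3 (0.9947) and Snx30 (0.991). Yap1 was nearest to Dbf4 (0.990), Gna12 (0.989) and Wdr26 (0.988), Pou5f1 to Hsf2bp (0.984), Gm30043 (0.983) and Xlr4c (0.977), and Carm1 to Timm23 (0.975), Eif5a (0.973) and Atad2b (0.966).

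The stage lists moved with the treatments in the same libraries. With TSA the 9 genes of the 2-cell embryo summed to 712 and 660 FPKM, against 222 and 269 in their DMSO group, and after A-485 they summed to 100 and 87.9 FPKM at late 2-cell, against 387 and 366. A list of 7 sperm genes summed to 15.3 and 18.9 FPKM in DMSO-treated zygotes, most of it Prm2, and to 1.25 to 3.21 FPKM in the late 2-cell DMSO groups.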
